A study of Homo sapiens with 6 samples.

Results

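The genes described here encode the extracellular matrix and the proteins that hold, cut and sense it: collagens, laminins, nidogen and perlecan, fibronectin, SPARC, thrombospondins, fibrillins, fibulins, a FREM protein, integrins, matrix metalloproteinases (MMPs) with their tissue inhibitors (TIMPs), and the ADAM and ADAMTS proteases. Members were taken by name, as every gene whose symbol follows the naming pattern of one of these families. That choice was made with earlier results of these data known. A gene with several measured regions was represented by the region with the highest mean over the libraries. This gave 89 genes of the 9588 named in the table, on 102 of its 14686 regions. The filter on low values kept 88 of them for testing, and ADAM22, a disintegrin without protease activity, was left out. ADAM22 was listed at 0 in all 3 endoderm libraries, against 14.4, 0 and 30.7 in the hESC libraries labelled G1, G1/S and S.

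The study set endoderm cells derived from human embryonic stem cells (hESCs) against the hESCs themselves around the entry into S phase of the cell cycle. All cells came from H9, an established hESC line, at passage 51. Endoderm cells had been treated for 6 days with activin A at 100 ng/ml, a ligand that signals through receptors it shares with nodal, in RPMI medium whose serum content was raised in steps from none, with 1 medium change on day 3. Their 3 libraries were labelled G1 (0 h), G1/S (3 h) and S (6 h). The hESCs were undifferentiated cells at day 0, passaged on growth factor reduced matrigel, a basement membrane extract, in medium conditioned by mouse embryonic fibroblasts. Their 3 libraries were labelled G1 (0 h), G1/S (2 h) and S (3 h). Activin A, serum, medium and days in culture all differ along with cell type and cannot be told apart from it. The sources used here do not give the surface under the endoderm cells, nor how either type was enriched for a phase.

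Basement membranes are thin sheets under epithelial cells, built from networks of laminin and type IV collagen that nidogen and perlecan link together. Fibrillar collagens form the tensile fibres of the matrix between cells, and fibronectin, thrombospondins and SPARC sit on or between these scaffolds. Cells hold the matrix through integrins, dimers of an alpha and a beta chain, and remodel it with MMPs, ADAMs and ADAMTS proteases. In the early embryo, primitive and definitive endoderm are epithelia in contact with a basement membrane.

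Values are signal, which is reads at a 3′ end region divided by 1 constant per library. Wherever 3 values of a cell type are given, they are those of its G1, G1/S and S libraries in that order. The endoderm libraries held 2502792 to 5389666 reads and the hESC libraries 4194957 to 6203079. A count of 0 allows a signal of up to 5.13 in endoderm S, the shallowest library, and up to 1.77 in hESC S, the deepest (3 reads, counting error only). The endoderm label was checked against its markers: all 9 of 9 definitive endoderm genes measured were called higher in endoderm, with a summed signal of 8545 to 18668 in endoderm and 481 to 564 in hESCs. Of 9 pluripotency genes, 3 (SOX2, DNMT3B and UTF1) were called lower in endoderm, with a summed signal of 2226 to 2976 in endoderm and 3733 to 4775 in hESCs. The other pluripotency genes, POU5F1 among them, were not called, and the median log2 difference of the 9 was -0.01. Differences are in log2(signal + 1), endoderm minus hESC, from a limma fit over 14657 regions with a term for phase, and a region is called where the Benjamini-Hochberg adjusted p is under 0.05. No type and phase has a second library and all cells came from 1 passage. These p-values thus rest only on how far the type difference varies between phases, with variance information shared across regions. That scatter may be technical or may be a type difference that changes with phase, and the 6 libraries cannot tell these apart. In RNA from whole cultures, more cells of a type and more RNA per cell cannot be told apart.

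Matrix genes differed between endoderm and hESCs in both directions. Of the 88 tested, 21 (23.9%) were called higher in endoderm, where 6.9% of all regions were. Lower calls numbered 15 (17%), where 7.6% of all regions were. The role groups below were not tested against these shares, and in groups this small a few calls say little about a group. The median difference over the members was 0.32, beside 0.02 over all regions tested, and single genes ranged from -3.70 (ADAMTS4) to 4.76 (FREM1). Both extremes rest on few reads in the lower cell type, so their size depends on the value added before the logarithm. All 3 endoderm libraries lay above all 3 hESC libraries for 25 members (28.4%, beside 14.7% of all regions) and below them for 19 (21.6%, beside 18.7%). All 36 called members were among these, which by itself fixes the same direction within G1, within G1/S and within S. The summed share of library signal on the members was nearly the same in both types, at 1.35% to 1.47% in endoderm and 1.28% to 1.35% in hESCs.

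The number of calls, over the members and over all regions alike, moved with the libraries fitted. Without hESC G1/S 5 members were called higher and 3 lower, where 223 and 196 of all regions were. Without endoderm G1/S the members were 7 and 5, beside 242 and 329 regions. Without hESC S they were 13 and 7, beside 596 and 379 regions, and without endoderm S 14 and 11, beside 601 and 599 regions. In all 6 fits that leave out 1 library, 7 members kept their call: FREM1, COL2A1, ADAM19, COL9A2 and SPARC higher in endoderm, and MMP9 and COL16A1 lower. As deposited, their regions are chr9:14727200-14727430 for FREM1, chr12:46653023-46653310 for COL2A1, chr5:156836882-156837229 for ADAM19, chr1:40539192-40539367 for COL9A2, chr5:151022185-151022725 for SPARC and chr1:31890805-31891027 for COL16A1, all on the minus strand, and chr20:44078345-44078586 on the plus strand for MMP9. LAMB3 and COL9A3 kept their call in none of the 6. How many of all called regions kept theirs was not counted. The count test edgeR called 34 of the 36 members at the same threshold, and DESeq2 called 36 of 36. Over all tested members edgeR called 20 higher and 15 lower, and DESeq2 23 and 17, so both also called members that limma did not. Over all regions edgeR called 816 higher and 1174 lower, and DESeq2 1379 and 1401, beside 1011 and 1114 in limma.

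**Figure D1:**
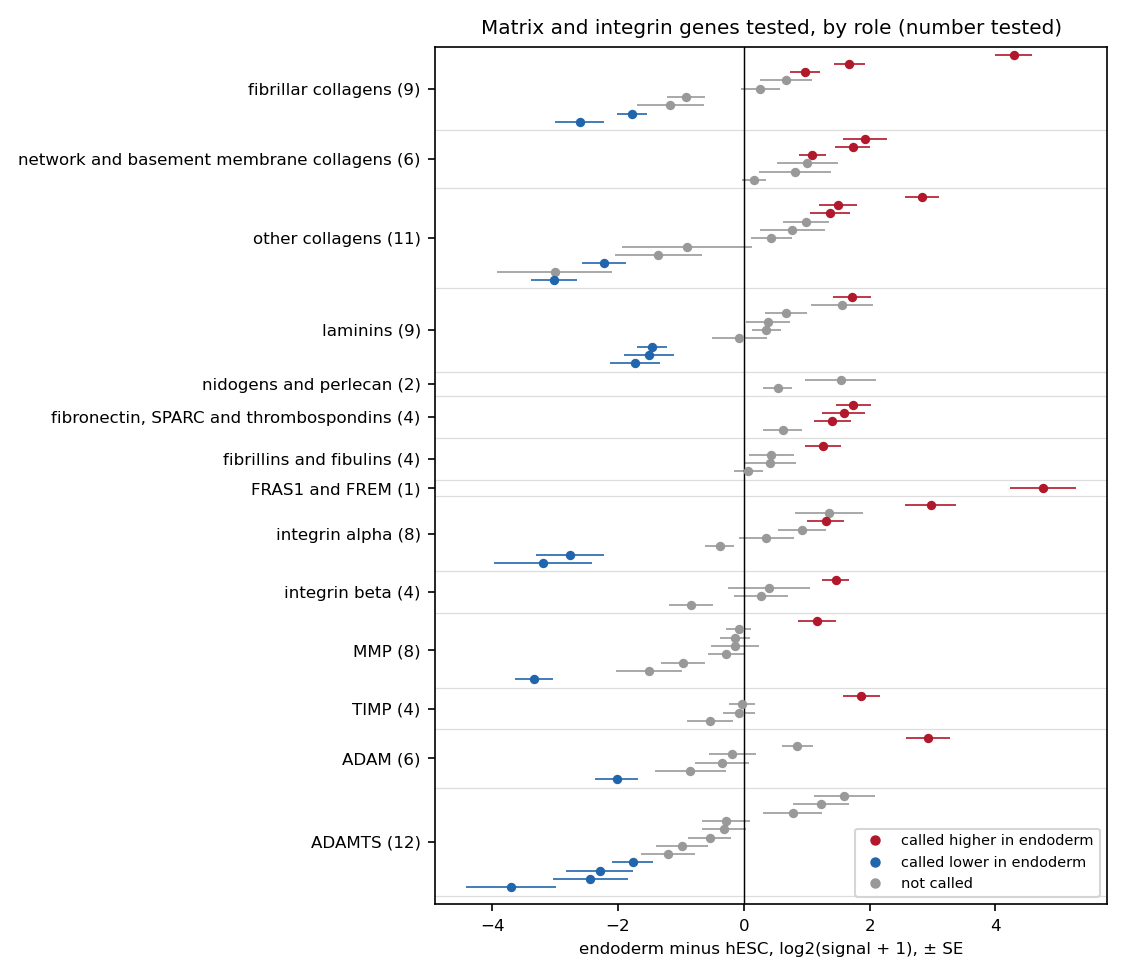
Difference in log2(signal + 1), endoderm minus hESC, for each tested gene (points, bars ± SE of the limma fit over 6 libraries), grouped by role with the number tested in brackets. Called genes stand on both sides of 0, from ADAMTS4 at -3.70 to FREM1 at 4.76.

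Among the fibrillar collagens, 3 of 9 were called higher in endoderm and 2 lower, with a group median of 0.26. COL2A1 encodes the chain of type II collagen, the main fibril of cartilage and also a product of early embryonic epithelia. Its signal was 701, 1041 and 637 in endoderm, against 49.9, 39.6 and 28.9 in hESCs. The groups were far apart, with means of 793 ± 218 in endoderm and 39.5 ± 10.5 in hESCs (SD, n = 3 each) and a ratio of means of 20.1. The difference was 4.29 ± 0.30 (SE), with an adjusted p of 0.00146 in limma.

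Type V collagen, which sets the width of type I fibrils, split by chain. COL5A2 stood at 1012, 1021 and 799 in endoderm and at 328, 265 and 287 in hESCs (1.68 ± 0.24, adjusted p = 0.00786 in limma). COL5A1 stood at 677, 767 and 668 in endoderm and 330, 427 and 326 in hESCs (0.97 ± 0.24, adjusted p = 0.0372 in limma). The third chain went the other way: COL5A3 stood at 9.67, 26.6 and 34.2 in endoderm and 107, 158 and 136 in hESCs (-2.61 ± 0.39, adjusted p = 0.00862 in limma). For each of these chains the 3 endoderm libraries and the 3 hESC libraries did not overlap.

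Both chains of type I collagen, the commonest fibrillar collagen of connective tissue, had lower means in endoderm, and 1 of them was called. COL1A1 read 565, 742 and 1210 in endoderm, against 1712, 3482 and 3479 in hESCs. The highest endoderm library thus lay below the lowest hESC library, and COL1A1 fell by 1.78 on the log2 scale (SE 0.24, adjusted p = 0.00608 in limma). COL1A2 read 98.7, 51.6 and 95.9 in endoderm and 224, 85.4 and 174 in hESCs, which overlap because hESC G1/S was low (-0.92 ± 0.30, adjusted p = 0.0794 in limma). The other uncalled fibrillar chains were COL27A1 at 0.26 ± 0.31, COL11A1 at 0.67 ± 0.41 and COL11A2 at -1.17 ± 0.53.

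The network-forming collagens gave 3 calls among 6 genes, all higher in endoderm, with a group median of 1.05. Type IV collagen is the sheet-forming collagen of basement membranes, and its COL4A1 and COL4A2 chains assemble together in a fixed ratio in nearly every basement membrane. COL4A1 was at 3020, 2644 and 3259 in endoderm, against 549, 1150 and 1121 in hESCs. COL4A2 was at 3571, 5395 and 4705 in endoderm, against 2008, 2658 and 1748 in hESCs. Neither gene overlapped between the types. COL4A1 was higher by 1.73 ± 0.28 (adjusted p = 0.0116 in limma) and COL4A2 by 1.09 ± 0.22 (adjusted p = 0.0205 in limma).

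Of the type IV chains paired on the X chromosome, 1 was called, and a difference between both genes was not tested. COL4A6, a chain of the basement membranes of smooth muscle and some epithelia, was at 122, 71.5 and 70.2 in endoderm, against 33.3, 15.6 and 19.5 in hESCs. These libraries did not overlap, and COL4A6 was higher by 1.92 ± 0.35 (adjusted p = 0.0162 in limma). Its head-to-head neighbour COL4A5, with 379 or 1415 bases between the start sites of the pair on GRCh38.p14, depending on the COL4A6 start, was at 135, 34.9 and 49.6 in endoderm, against 23.5, 26.0 and 68.5 in hESCs. The COL4A5 groups overlap, at 0.81 ± 0.57 (adjusted p = 0.339 in limma). COL18A1, the precursor of endostatin and a collagen of basement membranes, was at 7092, 11522 and 7915 in endoderm and 6846, 9139 and 7427 in hESCs. It overlapped between the types, at 0.16 ± 0.19 (adjusted p = 0.577 in limma), and turned to -0.21 after quantile normalization. COL8A1 completed the group, uncalled at 1.01 ± 0.48.

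Of the 11 other collagens, 3 were called higher in endoderm and 2 lower, with a group median of 0.44. Type IX collagen decorates type II fibrils, and both of its measured chains were among those called higher. COL9A2 had 434, 652 and 431 in endoderm, against 62.8, 90.6 and 56.1 in hESCs. COL9A3 had 592, 260 and 459 in endoderm, against 144, 157 and 177 in hESCs. Neither overlapped. COL9A2 was higher by 2.84 ± 0.27 (adjusted p = 0.00279 in limma) and COL9A3 by 1.37 ± 0.32 (adjusted p = 0.0329 in limma), but COL9A3 kept its call in none of the fits that leave out 1 library. COL6A1, a chain of the beaded filaments of type VI collagen, had 1518, 1116 and 1383 in endoderm and 368, 658 and 422 in hESCs, without overlap (1.50 ± 0.30, adjusted p = 0.0206 in limma). Its partner chain COL6A2 had 1274, 3989 and 2146 in endoderm and 1390, 1519 and 655 in hESCs, with endoderm G1 inside the hESC range (0.99 ± 0.36, adjusted p = 0.101 in limma).

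COL7A1 and COL16A1 were the other collagens called lower in endoderm. Type VII collagen, the product of COL7A1, forms the anchoring fibrils that tie the skin's basement membrane to the tissue beneath. COL7A1 had 810, 2263 and 2044 in endoderm, against 7956, 8682 and 5548 in hESCs. Its hESC mean was 4.34 times its endoderm mean, and the difference was -2.22 ± 0.35 (adjusted p = 0.00957 in limma). COL16A1, a collagen that binds to the surface of other fibrils, had 17.3, 25.0 and 12.0 in endoderm and 133, 151 and 159 in hESCs, a difference of -3.02 ± 0.37 (adjusted p = 0.00481 in limma). Both pairs of groups lie well apart, by a wider gap in relative terms for COL16A1, whose hESC mean was 8.17 times its endoderm mean.

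COL22A1, a collagen of tissue junctions, was the collagen whose call depended on the test. It had 4.83, 3.33 and 8.56 in endoderm, against 144, 3.12 and 209 in hESCs. The hESC G1/S library thus lay among the endoderm values, from 3 reads, while the other hESC libraries were far above them. The difference of -3.01 ± 0.91 had an adjusted p of 0.0663 in limma, 0.023 in edgeR and 7.3e-05 in DESeq2, with a range of 7.3e-05 to 0.223 over 18 alternatives. The remaining uncalled collagens of this group were COL12A1 at 0.77 ± 0.52, COL17A1 at 0.44 ± 0.33, COL13A1 at -0.90 ± 1.03 and COL20A1 at -1.36 ± 0.69.

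Promoter windows are printed here because COL4A1 and COL4A2, both called higher, share the stretch between their start sites, and because COL9A2, COL16A1 and COL7A1 were collagens called in opposite directions. They come from RefSeq on GRCh38.p14, a later build than the positions of the 3′ end regions. Each runs 5′ to 3′ on the strand named, is in lower case, and has matches to any of the searched motifs in capitals. The 4 lines are the stretch between the COL4A1 and COL4A2 start sites, chr13:110307158-110307283 (plus strand, with COL4A1 read leftward from it and COL4A2 rightward), then the 250 bases upstream of COL9A2, chr1:40317287-40317536, of COL16A1, chr1:31704018-31704267, and of COL7A1, chr3:48595330-48595579, the last 3 on the minus strand.
COL4A1 COL4A2 shared: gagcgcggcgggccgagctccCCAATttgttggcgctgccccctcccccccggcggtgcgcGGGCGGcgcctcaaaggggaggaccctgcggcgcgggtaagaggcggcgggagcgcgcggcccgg
COL9A2: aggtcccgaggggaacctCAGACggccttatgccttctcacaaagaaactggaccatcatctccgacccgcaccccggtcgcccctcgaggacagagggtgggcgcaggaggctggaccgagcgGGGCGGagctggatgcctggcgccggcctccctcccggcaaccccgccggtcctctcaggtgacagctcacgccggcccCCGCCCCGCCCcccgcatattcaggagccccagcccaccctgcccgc
COL16A1: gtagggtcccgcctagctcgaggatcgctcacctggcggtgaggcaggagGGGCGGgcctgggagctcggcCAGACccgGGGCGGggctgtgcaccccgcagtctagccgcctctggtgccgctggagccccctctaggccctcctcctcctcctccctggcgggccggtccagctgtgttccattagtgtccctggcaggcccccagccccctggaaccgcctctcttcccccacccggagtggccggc
COL7A1: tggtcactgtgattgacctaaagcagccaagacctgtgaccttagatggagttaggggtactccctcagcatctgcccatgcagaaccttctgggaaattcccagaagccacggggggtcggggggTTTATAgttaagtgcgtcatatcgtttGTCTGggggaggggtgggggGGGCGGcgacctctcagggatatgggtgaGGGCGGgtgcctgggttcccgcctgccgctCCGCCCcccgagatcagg

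The stretch between COL4A1 and COL4A2 is 126 bases long and 80.2% G or C, and it holds 1 CCAAT box and 1 GC box. The windows of COL9A2, COL16A1 and COL7A1 each hold at least 1 GC box and 1 SMAD site, and that of COL7A1 also holds a TATA box. Both strands were searched for 7 motifs. The general ones were the TATA box with the letters TATAAA, the CCAAT box, and the GC box with the letters GGGCGG, whose matches may overlap each other. The others were the short site of SMAD proteins, CAGAC, the GATA site as AGATAA, the FOXA site as TGTTTAC, and the SOX site as AACAAT. SPARC and ADAM19 have none of these letters in their windows. RefSeq windows were matched for 61 of the 89 members. GC boxes were in 77% of them and in 42.3% of 27305 promoters of the same length, with a median GC content of 70.4% and 58%. SMAD sites were in 41% of the members' windows and 37.8% of all, CCAAT boxes in 29.5% and 33%, TATA boxes in 9.84% and 11.1%, GATA in 4.92% and 9.37%, SOX in 3.28% and 9.19%, and FOXA in 1.64% and 2.98%. A match of such short letters is a description of the sequence and not a site of binding.

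Laminins, trimers of an alpha, a beta and a gamma chain that form the other sheet of the basement membrane, were called in both directions. Of 9 chains, 1 was called higher in endoderm and 3 lower, with a median of 0.36. LAMB1, the beta chain of laminin-111, the first laminin of the embryo, had a signal of 188, 346 and 294 in endoderm, against 77.9, 96.8 and 69.7 in hESCs. It was higher in endoderm by 1.72 ± 0.30 (adjusted p = 0.0149 in limma) without overlap. Its alpha partner LAMA1 had 211, 63.2 and 113 in endoderm and 25.7, 41.6 and 52.0 in hESCs. The LAMA1 groups did not overlap either, but the endoderm libraries spread widely. The difference of 1.56 ± 0.49 was not called (adjusted p = 0.0726 in limma, 0.102 in edgeR), though DESeq2 called it (adjusted p = 0.0246 in DESeq2). The gamma partner LAMC1 had 146, 141 and 234 in endoderm, within reach of the 84.7, 189 and 138 in hESCs (0.38 ± 0.35, adjusted p = 0.467 in limma).

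Among the chains called lower in endoderm, LAMB3, a beta chain of epithelial laminin, had 14.5, 26.6 and 25.7 in endoderm and 55.2, 46.9 and 97.5 in hESCs (-1.51 ± 0.40, adjusted p = 0.047 in limma, 0.0502 in edgeR, 0.0321 to 0.194 over 17 alternatives). The hESC libraries of LAMB3 were all above the endoderm ones but spread widely, and it lost its call without any 1 of the 6 libraries. LAMC3, a gamma chain of a few laminin trimers, had 223, 288 and 214 in endoderm and 658, 776 and 559 in hESCs, well apart (-1.46 ± 0.24, adjusted p = 0.0123 in limma). Uncalled were LAMB2, at 1219 ± 213 in endoderm and 955 ± 177 in hESCs (SD, n = 3 each), LAMA5 at a difference of 0.67 ± 0.34 and LAMA4 at -0.07 ± 0.44.

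Neither linker of the basement membrane was called. HSPG2, the core protein of perlecan, had 6548, 8198 and 3706 in endoderm, against 3484, 5350 and 3485 in hESCs. Endoderm S lay inside the hESC range, and the difference was 0.54 ± 0.23 (adjusted p = 0.141 in limma). NID1, nidogen, had 51.8, 15.0 and 53.1 in endoderm and 6.05, 9.37 and 24.2 in hESCs, which overlap through endoderm G1/S (1.54 ± 0.56, adjusted p = 0.0989 in limma).

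**Figure D2:**
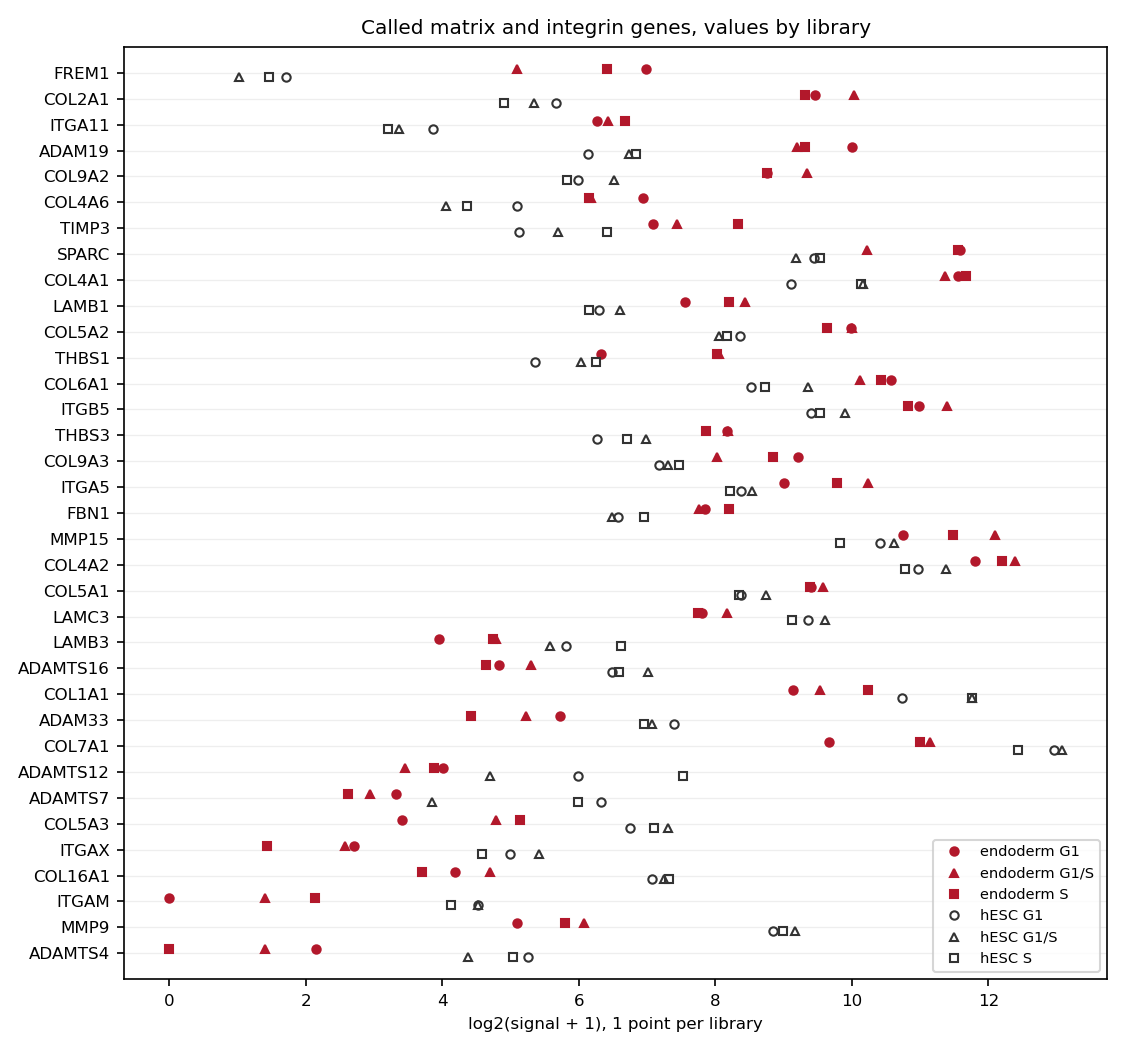
Signal of 35 of the 36 called genes as log2(signal + 1), 1 point per library, with endoderm libraries filled in red and hESC libraries open in black, and circles, triangles and squares for G1, G1/S and S. Genes run from FREM1, the largest difference at 4.76, to ADAMTS4 at -3.70, and in every row the endoderm points stay on 1 side of the hESC points.

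Of fibronectin, SPARC and the thrombospondins, 3 of 4 were called higher in endoderm and none lower. SPARC, a collagen-binding protein made in quantity by the parietal endoderm of the mouse, had 3079, 1190 and 3011 in endoderm, against 697, 578 and 739 in hESCs. Even the low endoderm G1/S library was above all hESC libraries, and the difference of 1.74 ± 0.28 (adjusted p = 0.0107 in limma) kept its call when any 1 library was left out. THBS1, which activates latent TGF-beta, had 79.4, 265 and 260 in endoderm and 40.1, 64.6 and 75.6 in hESCs (1.59 ± 0.34, adjusted p = 0.0248 in limma). Its endoderm G1 library lay just above the highest hESC library. THBS3 had 287, 289 and 231 in endoderm and 76.4, 126 and 103 in hESCs, clearly apart (1.41 ± 0.30, adjusted p = 0.0247 in limma). Fibronectin itself was not called: FN1 had 184, 161 and 202 in endoderm and 163, 108 and 93.3 in hESCs (0.62 ± 0.31, adjusted p = 0.203 in limma).

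The largest difference among the members in the fit was in FREM1, which encodes a protein of the FRAS1 and FREM complex that binds epithelium to the underlying matrix in the embryo. FREM1 had 126, 33.3 and 83.9 in endoderm, against 2.27, 1.04 and 1.77 in hESCs. The hESC values come from 3, 1 and 3 reads and are at or below the signal that a count of 0 allows, so FREM1 was not measurable above that level in hESCs. The difference was 4.76 ± 0.53 (adjusted p = 0.00393 in limma), a size that depends on the value of 1 added before the logarithm. With 5 added it was 3.52, below the 4.16 of COL2A1. Of the fibrillins and fibulins, 1 of 4 was called. FBN1, the fibrillin of elastic microfibrils, had 229, 215 and 293 in endoderm and 94.6, 88.5 and 123 in hESCs without overlap (1.26 ± 0.28, adjusted p = 0.0268 in limma). FBLN1, a fibulin of basement membranes and elastic fibres, had 2555, 3134 and 2143 in endoderm and 2661, 2263 and 2451 in hESCs, mixed together (0.07 ± 0.23, with a sign that turned to -0.08 after quantile normalization). FBLN2 and FBN2 were uncalled at 0.44 ± 0.36 and 0.42 ± 0.41.

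Integrin alpha chains were called in both directions, 2 of 8 higher in endoderm and 2 lower. ITGA11, the alpha chain of a collagen receptor, had 76.0, 84.8 and 101 in endoderm, against 13.6, 9.37 and 8.27 in hESCs. The types lay 8.38 times apart in their means, and the difference was 2.97 ± 0.41 (adjusted p = 0.00647 in limma). ITGA5, the alpha chain of the fibronectin receptor, had 512, 1211 and 883 in endoderm and 331, 369 and 297 in hESCs, again without overlap (1.30 ± 0.29, adjusted p = 0.0292 in limma). ITGAM and ITGAX, neighbours on chromosome 16 that encode alpha chains of leukocyte integrins, were lower in endoderm. ITGAX had 5.52, 4.99 and 1.71 in endoderm and 31.0, 41.6 and 23.0 in hESCs (-2.76 ± 0.54, adjusted p = 0.0192 in limma). ITGAM had 0, 1.66 and 3.42 in endoderm and 21.9, 21.9 and 16.5 in hESCs (-3.20 ± 0.78, adjusted p = 0.0371 in limma). Both are weakly measured: the ITGAM endoderm values come from 0, 1 and 2 reads.

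The other alpha chains were not called. ITGA3, which pairs with the beta 1 chain to bind laminin, had 873, 1747 and 1407 in endoderm, against 1421, 2362 and 1415 in hESCs, overlapping (-0.38 ± 0.23). ITGA2, ITGAV and ITGA6, chains of collagen, vitronectin and laminin receptors, stood at 1.35 ± 0.54, 0.92 ± 0.38 and 0.36 ± 0.44, each with overlap. Among 4 beta chains, ITGB5 was called. ITGB5 pairs with the alpha V chain, and it had 2022, 2687 and 1816 in endoderm and 675, 957 and 737 in hESCs, far apart (1.46 ± 0.22, adjusted p = 0.00848 in limma). ITGB1, the partner of most alpha chains named here, was barely measured, at 16.6, 9.98 and 6.85 in endoderm and 12.1, 3.12 and 11.2 in hESCs. With at most 24 reads in a library, its difference of 0.40 ± 0.65 says little either way. ITGB4 was lower in every endoderm library, at 58.0, 43.3 and 24.0 against 84.0, 72.9 and 58.5 in hESCs, and was not called (-0.84 ± 0.35, adjusted p = 0.138 in limma), and ITGB7 was at 0.28 ± 0.43.

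The MMPs gave 1 call in each direction among 8 genes, with a median of -0.21. MMP9, a gelatinase that cuts denatured and type IV collagen, had 33.1, 66.5 and 54.8 in endoderm, against 461, 574 and 506 in hESCs. Its hESC mean was 9.97 times its endoderm mean, and the difference of -3.34 ± 0.30 (adjusted p = 0.00221 in limma) kept its call when any 1 library was left out. MMP15, a membrane-anchored MMP, had 1723, 4369 and 2852 in endoderm and 1359, 1568 and 904 in hESCs, without overlap but with a wide spread in endoderm (1.16 ± 0.30, adjusted p = 0.0417 in limma, 0.0539 in edgeR, 0.000637 to 0.196 over 18 alternatives). MMP2, the other gelatinase, had 2963, 3645 and 3579 in endoderm and 3441, 4134 and 3195 in hESCs, overlapping (-0.08 ± 0.20, adjusted p = 0.812 in limma). MMP14, the membrane-anchored activator of MMP2, overlapped too, at 1788 ± 503 in endoderm and 2235 ± 958 in hESCs (SD, n = 3 each).

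TIMP3, the inhibitor that binds to the matrix, was the TIMP called among 4, with a group median of -0.06. It had 135, 173 and 320 in endoderm, against 34.0, 51.0 and 84.5 in hESCs. All endoderm libraries were above all hESC libraries, and the difference was 1.87 ± 0.30 (adjusted p = 0.0103 in limma). TIMP1, a soluble inhibitor, had 1886, 3038 and 2518 in endoderm and 2216, 3210 and 2140 in hESCs, overlapping at -0.03 ± 0.21. TIMP2 and TIMP4 were uncalled at -0.08 ± 0.25 and -0.54 ± 0.37.

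The ADAMs, membrane proteins of which many are proteases that shed other surface proteins, gave 1 call in each direction among 6 tested. ADAM19, which can shed neuregulins, had 1030, 586 and 638 in endoderm, against 69.6, 106 and 113 in hESCs. The lowest endoderm library was above every hESC library by a wide margin, and the difference was 2.93 ± 0.35 (adjusted p = 0.00447 in limma). ADAM33 had 51.8, 36.6 and 20.5 in endoderm and 168, 133 and 123 in hESCs, without overlap (-2.02 ± 0.34, adjusted p = 0.013 in limma). ADAM17, the main shedding enzyme of TNF, had 774, 722 and 613 in endoderm and 382, 501 and 302 in hESCs. The ADAM17 groups did not overlap, yet the difference of 0.85 ± 0.25 was not called (adjusted p = 0.0592 in limma).

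The ADAMTS proteases, secreted enzymes that cut proteoglycans and process procollagen, had a median of -0.76. In limma 4 of 12 were called lower and none higher, where 7.6% and 6.9% of all regions were. These counts were not tested, and a lack of higher calls among 12 genes says little. ADAMTS16 had 27.6, 38.3 and 24.0 in endoderm, against 88.5, 128 and 95.1 in hESCs (-1.77 ± 0.33, adjusted p = 0.0178 in limma). ADAMTS4, an aggrecanase, had 3.45, 1.66 and 0 in endoderm and 37.1, 19.8 and 31.9 in hESCs (-3.70 ± 0.72, adjusted p = 0.0192 in limma). Its endoderm values come from 5, 1 and 0 reads, near the signal that a count of 0 allows. The size of the ADAMTS4 difference thus depends on the value added before the logarithm. ADAMTS12 had 15.2, 9.98 and 13.7 in endoderm and 62.8, 25.0 and 183 in hESCs (-2.29 ± 0.53, adjusted p = 0.0311 in limma). ADAMTS7 had 8.98, 6.65 and 5.13 in endoderm and 79.4, 13.5 and 62.6 in hESCs (-2.44 ± 0.60, adjusted p = 0.0369 in limma). In ADAMTS12 and ADAMTS7 the hESC G1/S library stood closest to the endoderm libraries. On the other side of 0, ADAMTS1 had 91.1, 48.2 and 199 in endoderm and 20.4, 41.6 and 34.9 in hESCs, without overlap. ADAMTS1 was not called in limma (1.60 ± 0.49, adjusted p = 0.0682), with an adjusted p of 0.0892 in edgeR and 0.0177 in DESeq2. ADAMTS15 had 91.8, 358 and 284 in endoderm and 98.3, 77.0 and 93.3 in hESCs, overlapping through endoderm G1 (1.23 ± 0.45, adjusted p = 0.104 in limma).

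The second regions of these genes mostly pointed the same way. Another 13 regions, on 12 genes, carried a member's name, and 11 of them had the sign of the region used. COL2A1 was called higher again, with 58.0, 43.3 and 20.5 in endoderm against 3.03, 6.25 and 5.32 in hESCs. LAMB1 was called higher again, with 73.2, 84.8 and 80.4 in endoderm and 24.2, 29.2 and 25.4 in hESCs. The second region of ITGA3, with 0.69, 8.32 and 12.0 in endoderm and 50.7, 22.9 and 49.0 in hESCs, was called lower at -2.75, while the region used was not called at -0.38. ADAM19 had 2 further regions, neither called, which stood at 1.77 and 0.64 beside 2.93 in the region used. Differences between the regions of a gene were not tested. FBLN1 and SPARC had a second region of the opposite sign, and neither second region was called.

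**Figure D3:**
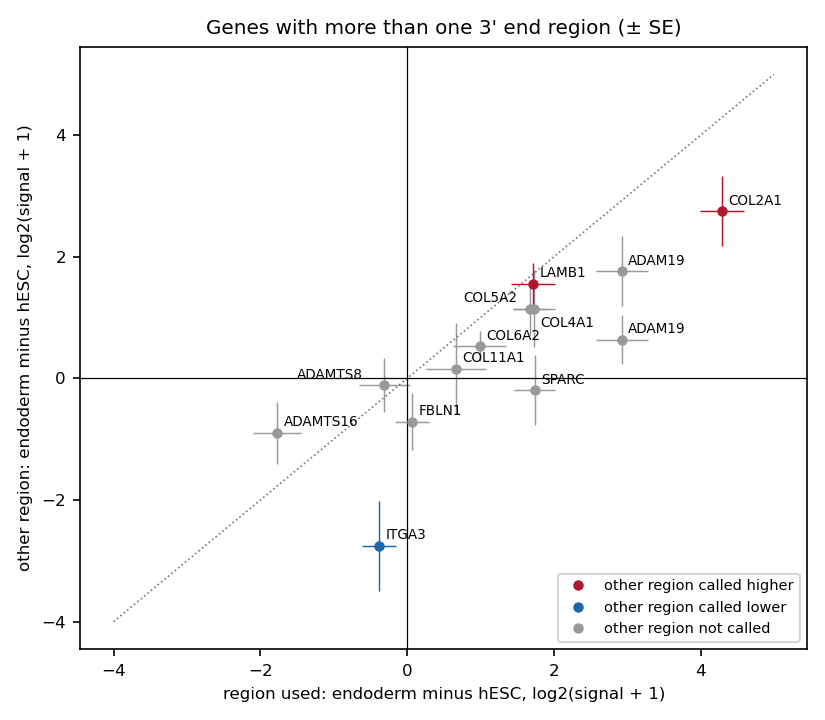
Difference in log2(signal + 1), endoderm minus hESC, ± SE, in the region used for a gene (horizontal axis) and in each other region with the same gene name (vertical axis), with a dotted line where both are equal. The second regions of COL2A1 and LAMB1 are called higher and that of ITGA3 lower, at -2.75 against -0.38 in the region used.

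Genes around the members were counted from 6 lists of the same pathways. Over all regions 6.9% were called higher in endoderm and 7.6% lower. No list was tested against these shares, and in lists this small a few calls say little about a list. Of 18 genes for collagen processing and crosslinking, 2 were called higher in endoderm and 2 lower (median 0.13). LEPREL1, a prolyl 3-hydroxylase that modifies collagen chains, averaged 2340 ± 401 in endoderm and 456 ± 64.1 in hESCs (SD, n = 3 each), a difference of 2.35, and LOXL4, a lysyl oxidase that crosslinks collagen, differed by 1.85. PCOLCE, an enhancer of procollagen cleavage, differed by -1.25 and LEPREL2 by -0.99. Of 26 genes of the integrin adhesion complex inside the cell, 5 were called higher and none lower (median 0.60). Among the calls were the adaptor genes LIMS1, LIMS2 and PARVA and the kinase gene SRC, with LIMS1 resting mainly on endoderm S, at 503 beside 80.8 and 76.5 in endoderm G1 and G1/S.

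Of 17 proteoglycan and hyaluronan genes, 1 was called higher in endoderm and 5 lower (median -0.20). HAS2, a hyaluronan synthase, differed by 1.91. BGN (biglycan) averaged 152 ± 49.2 in endoderm and 538 ± 154 in hESCs, a difference of -1.84, and SDC1 (syndecan-1) averaged 418 ± 51.7 in endoderm and 975 ± 133 in hESCs, a difference of -1.22. BCAN, HAPLN3 and HAS3 were the other calls. Of 20 other matricellular and elastic matrix genes, 6 were called higher and 2 lower (median 0.32). MFAP4, a microfibril-associated protein, averaged 256 ± 95.1 in endoderm and 23.4 ± 6.63 in hESCs, a difference of 3.36. EMILIN1 averaged 9.60 ± 4.14 in endoderm and 102 ± 58.6 in hESCs, a difference of -3.17, while EMILIN2 differed by 1.41, TNC (tenascin-C) by 1.53 and EFEMP2 by 1.29. Elastin, ELN, was the second gene called lower, at -2.21, and it was chosen after its value was seen.

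Of 9 matrix receptors that are not integrins, none was called higher and 1, SDC1, was called lower (median 0.20). Of 16 other protease and inhibitor genes, 2 were called higher and 1 lower (median 0.23). SERPINE2, an inhibitor of thrombin and plasminogen activators, averaged 1478 ± 340 in endoderm and 161 ± 32.5 in hESCs, a difference of 3.18. SPINT2 differed by 1.69, and TLL2, a protease of the procollagen processing family, by -1.91.

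Markers of other cell types that make matrix were read beside these counts. Of 11 stromal and mesenchymal markers 7 were in the table. TWIST1, TAGLN and VIM were called higher in endoderm and THY1 and S100A4 lower, and the summed signal was 30574 to 74839 in endoderm and 25392 to 39950 in hESCs, most of it TAGLN. Of 7 endothelial markers 3 were in the table, with VWF called higher and TIE1 lower and a sum of 221 to 260 in endoderm and 246 to 416 in hESCs. The 2 trophoblast markers measured, of 8, were both called lower, with a sum of 29 to 59.9 in endoderm and 188 to 287 in hESCs. Of 4 neuroectoderm markers, out of 6, 3 were called higher (PAX6, OTX2 and NCAM1), with a sum of 5420 to 11844 in endoderm and 5961 to 9044 in hESCs, and the 1 mesoderm marker measured, of 6, was not called. The part of other cell types in the members' differences was not tested.

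Between phases, no member passed the threshold. In limma 0 members and 0% of all regions were called for G1/S against G1, S against G1 and S against G1/S. At an unadjusted p under 0.05, 15 members (17%) were counted for G1/S against G1, where 13.7% of all regions were. The same count was 6 members (6.82%, beside 3.39%) for S against G1 and 11 members (12.5%, beside 10.6%) for S against G1/S. edgeR called 0 members in each comparison, and DESeq2 called COL22A1, with 3 reads in hESC G1/S, for S against G1/S. The calls of G1/S against G1 moved with the G1 libraries: without hESC G1, limma called 3 members (MMP15, COL6A2 and COL7A1), and without endoderm G1 it called 1 (COL8A1, also called for S against G1). The share of all regions called between phases in these fits and in DESeq2 was not counted, so these member calls have no background beside them.

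The genes with the smallest p per phase comparison follow, each with 1 library per type and phase. THBS1 was lowest in G1 in both types, with a difference of 1.20 ± 0.41 for G1/S against G1 (adjusted p = 0.362 in limma) and 1.30 ± 0.41 for S against G1 (adjusted p = 0.982 in limma). ADAMTS5, another aggrecanase, had 8.29, 56.6 and 27.4 in endoderm, and 6.81, 20.8 and 16.5 in hESCs, and was highest at G1/S in both types (2.06 ± 0.58 for G1/S against G1, adjusted p = 0.362 in limma). ITGA3 was likewise highest in G1/S in both types (0.87 ± 0.29) and COL1A2 lowest there (-1.15 ± 0.37). For S against G1, TIMP3 differed by 1.26 ± 0.36, COL1A1 by 1.06 ± 0.29 and COL17A1, a collagen of epithelial attachment plaques, by 1.11 ± 0.41. For S against G1/S, HSPG2 differed by -0.88 ± 0.28, COL17A1 by 1.06 ± 0.41, ITGA2 by 2.06 ± 0.66 and COL22A1 by 3.41 ± 1.12, all with an adjusted p of 0.463 in limma. ITGA2 was at 32.5, 16.6 and 101 in endoderm and 30.3, 5.21 and 17.7 in hESCs, higher in S than in G1/S in both types.

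**Figure D4:**
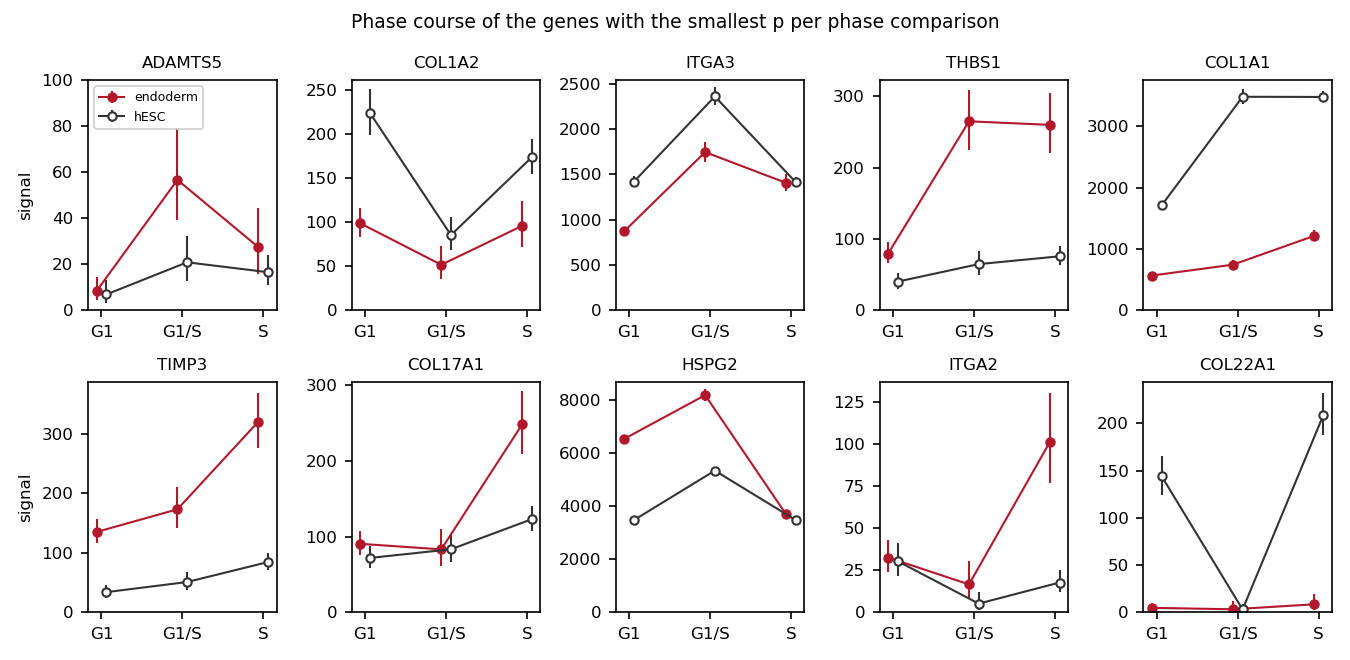
Signal of the 10 members with the smallest p in the phase comparisons, in G1, G1/S and S, for endoderm (filled, red) and hESCs (open, black), with bars for 95% counting intervals of 1 library. ADAMTS5 and ITGA3 peak in G1/S in both types, TIMP3 is highest in S in both, and COL22A1 in hESCs drops to 3.12 in G1/S beside 144 and 209 in G1 and S.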

How the data were processed

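The members and gene lists were chosen with earlier results of these data known. The authors deposited their signal values, 1 per region and library, in a single table. Tools and builds listed in the submitters' processing notes, with no role, are DESeq 1.5.24, Bowtie 0.12.7, CASAVA 1.5, hg18 and NCBI36. The deposited signal values are whole reads divided by 1 constant per library, for 100% of values at a tolerance of 1e-06, and 0 columns were left unused. Positions are as deposited, and with no annotation of that build no exon or untranslated region is given.

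Regions were kept where log2(signal + 1) was at least 1 in at least 3 of 6 libraries, which left 14657 and removed 29. Differences of genes with low signal come out too small on that scale. The model (limma 3.58.1 in R 4.3.3, lmFit and eBayes with an intensity trend) had terms for cell type and phase, residual degrees of freedom of 2, prior degrees of 5.46, with Benjamini-Hochberg adjustment over all regions and a threshold of 0.05. The phase term is the replicate block, since the number of a library stands for its phase. The fit was checked on simulated reads. Alternatives were edgeR 4.0.16 (quasi-likelihood) and DESeq2 1.42.0 on the recovered read counts, other pseudocounts, filters and scalings, no trend, no phase term, the sum over a gene's regions, and each library left out.

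Genes were named by rule: called members (at most 30, by smallest p), the member with the highest mean in each role group, the 4 with the smallest p per phase comparison, and at most 5 called genes per list by smallest p. Others (COL5A1, MMP15, ADAMTS7, ITGAM, LAMB3 and COL9A3 among the calls, uncalled members outside the rule, HAS3, ELN and the cell type markers) were named after their values were seen. Role groups follow gene names. The values of 1 called member and of a called list gene are not reported here, but the counts include them.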

Additional observations from a re-analysis of the deposited data

Results flagged for a closer look

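COL4A5 and MMP17 moved between G1 and S in opposite directions in the 2 cell types. COL4A5 had 135 in endoderm G1 and 49.6 in endoderm S, a log2 change of -1.43, while it had 23.5 in hESC G1 and 68.5 in hESC S, a log2 change of 1.51. The changes differ by -2.94, endoderm minus hESC. MMP17, an MMP tethered to the cell surface by a lipid anchor, had 40.7 in endoderm G1 and 85.6 in endoderm S, a change of 1.05, while it had 363 in hESC G1 and 106 in hESC S, a change of -1.77. These changes differ by 2.82. Each value is 1 library, so neither difference was tested.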

How the results depend on the processing

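Beside 21 members called higher and 15 lower, and 1011 and 1114 of all regions, a filter on mean signal of at least 50 left 61 members and 6507 regions to test, with 18 members called higher and 9 lower, and 544 and 442 regions. Without an intensity trend 9 members were called higher and 9 lower, and 587 and 879 regions. Leaving out each library in turn gave 5 to 24 members higher, 3 to 14 lower, and 223 to 1342 and 196 to 1132 regions, and leaving out both G1/S libraries gave 5 and 3 members and 202 and 213 regions. For phases, leaving out 1 library gave 0 to 3 members for G1/S against G1 and 0 to 1 for S against G1, and DESeq2 gave 1 for S against G1/S. All regions were not counted for these phase calls. Without the replicate block (no phase term) 18 members were called higher and 14 lower, and 837 and 988 regions. Of the 52 members followed through the alternatives, those whose difference changed sign were uncalled: COL18A1 (-0.21) and FBLN1 (-0.08) with quantile normalization, FBLN1 (-0.13) and TIMP1 (0.00) without both G1/S libraries, and FBLN1, COL4A5 and TIMP1 with a library left out, where FBLN1 ranged from -0.13 to 0.21, COL4A5 from -0.02 to 1.45 and TIMP1 from -0.16 to 0.08. The cause was not tested in these cases. Pseudocounts of 0.5 and 5, TMM factors and the sum over regions kept 21 and 15. At 2502792 to 6203079 reads, genes with few reads, such as ITGB1, ITGAM and ADAMTS4, are measured with little precision. Why their counts are low was not tested.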
